A study of Mus musculus with 8 samples.

Results

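Glycolysis and the pentose phosphate pathway were followed through 36 genes: the carriers that bring glucose in and take lactate out, the enzymes of each glycolytic step, the enzymes that decide the fate of pyruvate, the phosphoglucomutases, and the oxidative and non-oxidative branches of the pentose phosphate pathway. Members were chosen by their symbols, from a list of genes of these routes that was drawn up with earlier results of these data known, although the rule itself uses no measured value. All 36 were among the 13751 genes of the deposited normalised matrix, and all 36 passed the filter on low counts that left 13378 genes to test. The study measured polyadenylated RNA of naive CD4 T cells, sorted from peripheral lymph nodes of wild-type C57BL/6 mice and cultured in RPMI GlutaMAX with fetal calf serum. Every culture was stimulated for 20 hours with coated antibodies against the T cell receptor component CD3 and the costimulatory receptor CD28. In 4 cultures this was the only treatment (control), and in the other 4 the medium was also supplemented with iron (FAC). Neither the dose of FAC nor any vehicle added to control cultures is given in the sources used here. The labels number the libraries of each group as mice 1 to 4, and a shared number was taken here as the same mouse in both groups. They do not say whether a number stands for a single animal or for pooled mice. The 8 cultures include no unstimulated one.

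Glycolysis splits glucose into pyruvate in the cytosol. Its upper steps spend ATP to make triose phosphates, and its lower steps, from glyceraldehyde phosphate dehydrogenase to pyruvate kinase, return ATP and NADH. The pentose phosphate pathway branches off after hexokinase: its oxidative branch makes NADPH, and its non-oxidative branch exchanges sugars between ribose phosphate and glycolytic intermediates. T cells that are activated through CD3 and CD28 are known to raise glucose uptake and to turn much of the pyruvate into lactate, which leaves through monocarboxylate carriers. Many genes of this route are known targets of the hypoxia-inducible factors and of Myc, and the hydroxylases that mark hypoxia-inducible factors for destruction need iron.

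The 8 libraries held 25410267 to 37350609 estimated counts, and library totals did not separate the groups (exact permutation p = 0.83, two-sided, 70 assignments). Summed levels of 8 CD4 T cell markers were 2634 to 2714 TPM (a level scaled for transcript length and library size) in control and 2810 to 2895 TPM in FAC libraries. This had the smallest exact permutation p the design allows (0.0286, two-sided; 0.229 after Benjamini-Hochberg adjustment over 8 tests). Among these markers Cd5 had the widest gap, at 596 to 631 TPM in control and 698 to 747 TPM in FAC libraries. Trac and Cd3g were also higher in every FAC library, while Cd3e, Cd3d, Cd4, Cd28 and Lck overlapped between the groups. Markers of other cells were low. The 6 myeloid markers summed to 0.04 to 0.13 TPM in control and 0.11 to 0.2 TPM in FAC libraries, the 3 NK cell markers to at most 0.14 and 0.1 TPM, and Lyz2, Ncr1 and the platelet genes Pf4 and Ppbp were listed at 0 TPM in all 8 libraries. The 2 CD8 T cell genes summed to 8.36 to 10.95 TPM in control and 6.6 to 9.55 TPM in FAC libraries, nearly all of it Cd8b1, and the 3 stromal genes to 3.37 to 4.62 and 3.77 to 5.5 TPM, nearly all of it Pecam1. Transcripts of 4 haemoglobin genes summed to 13.49 TPM in control 3 and were listed at 0 in the other 7 libraries. The part of these marker levels in the results was not tested. Across all 13378 genes, 438 (3.27%) passed the test between FAC and control (threshold 0.05 on the adjusted p). FAC libraries were higher for 291 of them (2.18%) and lower for 147 (1.10%). That split was 426 to 374 after a correction for GC content and length, 667 to 704 with this correction and the mouse block, and 90 to 27 with limma on log2(TPM + 0.1). In RNA from whole cultures, fewer cells of a type and less RNA per cell cannot be told apart.

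The pathway was among the more abundant transcripts of these cells. The median member had a mean of 82.2 CPM (counts scaled to library size after TMM normalisation, not to length), against 19.6 CPM for the median tested gene. Per transcript length, Gapdh stood highest at a mean of 2648 TPM over the 8 libraries. It was followed by the lactate dehydrogenase subunit Ldha at 1971 TPM, pyruvate kinase Pkm at 1563 TPM, aldolase Aldoa at 1362 TPM and enolase Eno1 at 977 TPM. Below these came Pgk1 (715 TPM), Pgam1 (501 TPM), Gpi1 (462 TPM), the transketolase Tkt (455 TPM) and Tpi1 (345 TPM). The genes of the hexokinase and phosphofructokinase steps stood lower, at 51.7 TPM for hexokinase Hk2, 43.2 TPM for Hk1, 121 TPM for phosphofructokinase Pfkp and 82.7 TPM for Pfkl. The glucose carrier Slc2a1 was at 46.4 TPM and Slc2a3 at 12.2 TPM. At the bottom were Eno2, Pfkfb4, Pdk2 and Aldoc, with means of 2.22, 1.69, 1.38 and 0.421 TPM.

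**Figure D1:**
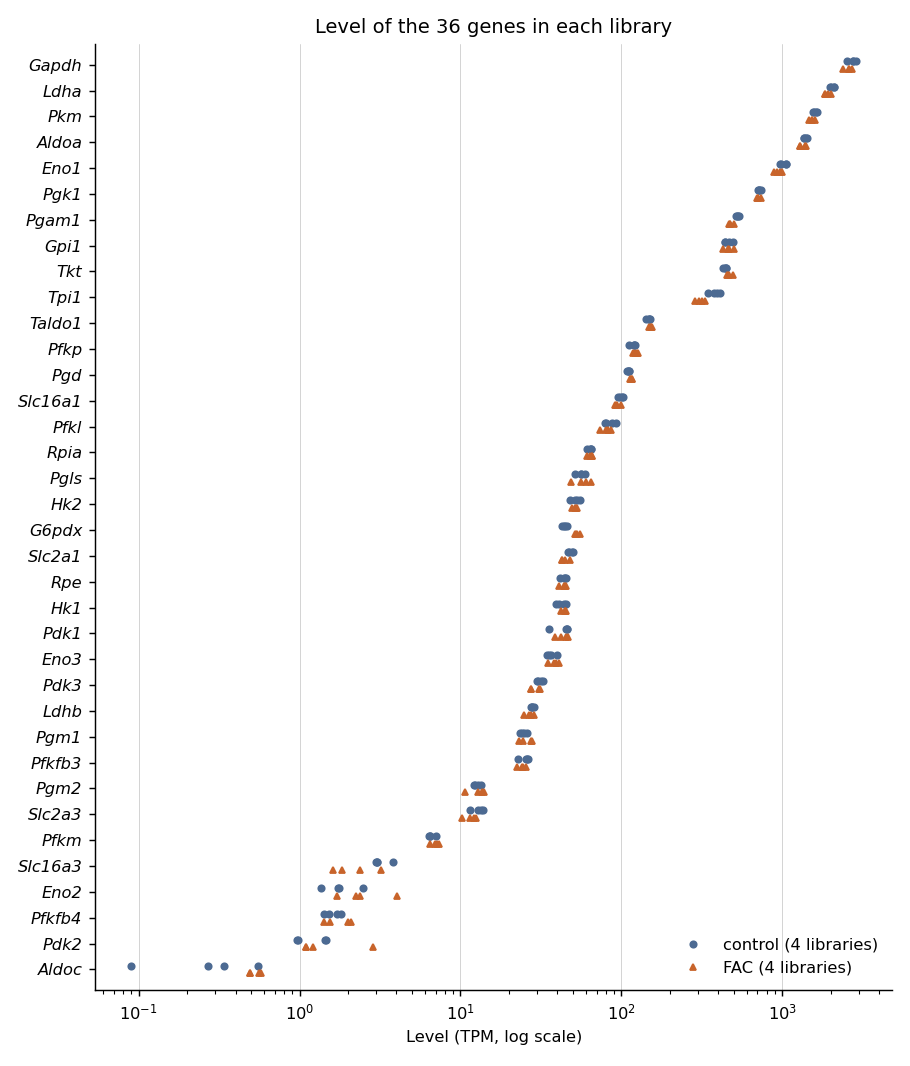
Level of each of the 36 genes in TPM on a log axis, 1 point per library, control and FAC in separate colours, ordered by mean TPM. Levels run from 0.421 TPM for Aldoc to 2648 TPM for Gapdh (means over 8 libraries), and the points of control and FAC libraries lie close together compared with the distance between genes.

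Shares of a step were taken among the members alone. For several steps a single member held nearly all of these transcripts. In control libraries Aldoa held 99.98% ± 0.0135 (SD, n = 4) of the aldolase transcripts counted in TPM, Ldha held 98.6% ± 0.0358 of lactate dehydrogenase, Slc16a1 held 96.9% ± 0.319 of the sum with Slc16a3 and Eno1 held 96.3% ± 0.299 of enolase. Pfkfb3, which makes the small molecule that activates phosphofructokinase, held 93.9% ± 0.945 of the sum with Pfkfb4. Relatives outside the 36 genes add to these families: control libraries held means of 14.0 TPM of Slc16a6, 2.80 TPM of Pfkfb1 and 3.08 TPM of Pfkfb2, against 3.21 TPM of Slc16a3 and 1.62 TPM of Pfkfb4. Other steps were shared. Hexokinase was split between Hk2 (55.2% ± 1.78) and Hk1 (44.8% ± 1.78), and phosphofructokinase between Pfkp (56.5% ± 1.25), Pfkl (40.4% ± 1.36) and Pfkm (3.14% ± 0.300). Pyruvate dehydrogenase kinase was split between Pdk1 (57.0% ± 2.74) and Pdk3 (41.4% ± 2.84), and the sum of Pgm1 and Pgm2 between Pgm1 (65.9% ± 1.89) and Pgm2 (34.1% ± 1.89). Outside the 36 genes, Pgm3 stood at 12.4 TPM and Pgm2l1 at 8.01 TPM in control libraries. The share of every isozyme overlapped between control and FAC libraries on the TPM scale.

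With FAC, Tpi1, Pfkl and Pgam1 fell and G6pdx rose, and the other 32 genes did not pass the test. These 4 of 36 genes (11.1%) stand beside 3.27% of all tested genes (edgeR quasi-likelihood test, Benjamini-Hochberg adjusted over 13378 genes). At an unadjusted p under 0.05 there were 12 of 36, 11 of them lower, beside 18.4% of all tested genes (1089 lower and 1374 higher of 13378). The 3 that fell belong to glycolysis: triose phosphate isomerase, the liver-type phosphofructokinase and phosphoglycerate mutase. G6pdx, the X-linked glucose phosphate dehydrogenase that opens the pentose phosphate pathway, was the only member that rose. The changes were small, between -0.34 and 0.19 on the log2 scale. The median log2 change of all 36 genes was -0.04, against -0.001 over all tested genes. By role, the median log2 change was -0.01 for the 9 upper glycolysis genes (2 lower), -0.09 for the 7 lower glycolysis genes (1 lower) and 0.03 for the 7 pentose genes (1 higher). Over the alternatives the median stayed below 0 for lower glycolysis (-0.12 to -0.06) and above 0 for the pentose genes (0.002 to 0.05). For upper glycolysis it lay on either side of 0 (-0.04 to 0.01). No test compared these medians with each other. The upper glycolysis genes include Aldoc, which had few counts and a log2 change of 1.08. On log2(TPM + 1) the upper median was -0.003 in the fit of 8 genes that left Aldoc out. In the fit of 9 genes without a filter, which held Aldoc, it was 0.006. For the fit on counts no median was taken without Aldoc. Without control 1, control 3, FAC 2 or FAC 3, 2 of the 36 genes passed (all tested genes: 1.38%, 1.82%, 1.24% and 1.08% in that order). With correction for GC content and length 11 passed, against 5.98% of all tested genes (the 4 above with Slc2a1, Aldoa, Gapdh, Eno1, Pkm, Ldha and Slc16a1, all 7 lower).

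When each mouse was compared with itself (a replicate block for the mouse), 8 of 36 genes passed, against 6.87% of all tested genes (4.07% higher and 2.80% lower). The 4 named above were joined by Gapdh, Eno1, Ldha and Slc16a1, all lower with FAC. All 7 glycolysis and carrier genes among these 8 had a log2 change below 0, and 3 of the 7 lower glycolysis genes passed with the block, where 1 did without it. With the block, 1 gene (Tpi1) passed without mouse 3 and 9 passed without mouse 4 (all tested genes: 1.23% and 9.02%).

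**Figure D2:**
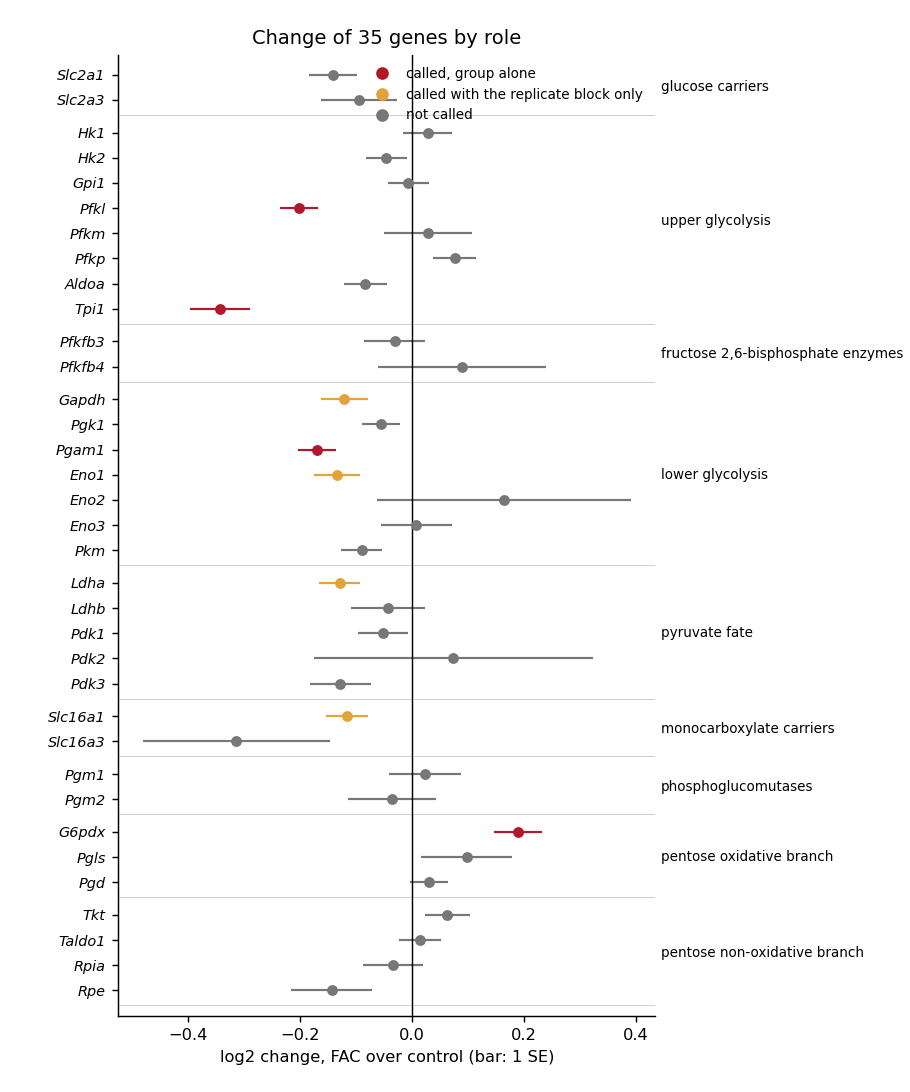
Log2 change with FAC over control for each of the 36 genes except Aldoc, which is not drawn, with bars of 1 standard error. Genes are grouped by role and coloured by whether they passed the test without the mouse block, only with it, or not at all. Tpi1 lies lowest among the genes that passed at -0.34, and G6pdx is the only one of them to the right of 0.

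Since hypoxia-inducible factors and Myc bind near the start of many glycolytic genes, the promoters of the 4 genes that passed are shown as reference sequence (RefSeq, GRCm38.p6, 250 bases before to 50 bases after the start, written 5′ to 3′ on the strand of the gene). Capitals mark matches, on either strand, of ACGTG and GCGTG (the core of the hypoxia element in its A and G forms), CACGTG (the E-box, which holds ACGTG) and TCACNCCAC (a sterol element). The windows are chr6:124814109-124814408 (minus strand), chr10:78009758-78010057 (minus), chr19:41911621-41911920 (plus) and chrX:74428831-74429130 (minus).
Tpi1: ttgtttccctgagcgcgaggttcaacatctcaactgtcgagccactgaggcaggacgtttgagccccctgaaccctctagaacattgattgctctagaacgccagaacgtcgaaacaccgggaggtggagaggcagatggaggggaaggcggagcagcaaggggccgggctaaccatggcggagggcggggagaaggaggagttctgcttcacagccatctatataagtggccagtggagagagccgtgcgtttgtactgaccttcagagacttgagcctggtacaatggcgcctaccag
Pfkl: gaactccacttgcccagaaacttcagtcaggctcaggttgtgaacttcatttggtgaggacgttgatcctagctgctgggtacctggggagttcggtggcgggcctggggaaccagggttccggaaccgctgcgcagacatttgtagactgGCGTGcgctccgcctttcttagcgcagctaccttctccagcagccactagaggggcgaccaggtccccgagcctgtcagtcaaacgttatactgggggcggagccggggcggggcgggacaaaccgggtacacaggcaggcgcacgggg
Pgam1: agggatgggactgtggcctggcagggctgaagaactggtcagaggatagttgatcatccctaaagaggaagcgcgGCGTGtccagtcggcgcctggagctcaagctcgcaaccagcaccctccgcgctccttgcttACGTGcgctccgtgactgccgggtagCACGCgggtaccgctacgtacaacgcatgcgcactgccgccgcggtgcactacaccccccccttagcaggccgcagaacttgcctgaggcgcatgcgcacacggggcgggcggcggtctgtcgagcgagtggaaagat
G6pdx: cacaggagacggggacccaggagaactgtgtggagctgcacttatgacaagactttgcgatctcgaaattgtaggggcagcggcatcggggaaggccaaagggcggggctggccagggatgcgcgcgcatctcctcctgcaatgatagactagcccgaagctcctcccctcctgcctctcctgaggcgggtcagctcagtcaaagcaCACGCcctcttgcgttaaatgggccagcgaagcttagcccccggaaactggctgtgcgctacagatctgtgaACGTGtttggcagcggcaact
Pgam1 held 1 ACGTG and 2 GCGTG matches, Pfkl 1 GCGTG, G6pdx 1 ACGTG and 1 GCGTG, and no motif was found in this window of Tpi1. Of the 36 genes, 35 had 50 windows in the table, several of which overlap within a gene, and Slc2a3 had none. ACGTG or GCGTG stood in 78% of the 50 windows, in 63.0% of 11635 windows of tested genes and in 43.8% of all 32851 windows. The E-box stood in 10% of the members' windows and in 10.5% of those of tested genes. Median GC content was 60.7% in both the members' and the tested genes' windows and 52.7% in all windows. A match describes letters only, and binding was not measured.

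Among the members, most glucose carrier transcripts were of Slc2a1 (GLUT1), the carrier that activated T cells are known to induce. Slc2a1 stood at 83.2, 84.6, 86.2 and 90.7 CPM in control mice 1 to 4 and 76.9, 76.8, 81.5 and 77.2 CPM in FAC mice 1 to 4. All FAC libraries were below all control libraries, a separation seen in 11.1% of all tested genes (6.17% higher and 4.89% lower with FAC), yet the log2 change of -0.14 (SE 0.04, edgeR adjusted p = 0.0986) missed the threshold, also with the mouse block (adjusted p = 0.0532). Slc2a3 (GLUT3), the other glucose carrier, stood at 25.3, 26.9, 28.4 and 29.6 CPM in control mice 1 to 4 and 23.9, 24.7, 27.5 and 27.1 CPM in FAC mice 1 to 4. Its groups overlapped, with a log2 change of -0.10 (SE 0.07, edgeR adjusted p = 0.495).

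At the hexokinase step, which traps glucose in the cell, neither enzyme changed by the test. Hk2 stood at 208, 191, 201 and 196 CPM in control mice 1 to 4 and 193, 194, 196 and 187 CPM in FAC mice 1 to 4. Hk1 stood at 106, 107, 117 and 117 CPM in control mice 1 to 4 and 109, 116, 115 and 115 CPM in FAC mice 1 to 4. The log2 changes were -0.05 and 0.03 (adjusted p = 0.545 and 0.792, edgeR), with overlapping groups for both. Gpi1, the isomerase that follows, had a log2 change of -0.01 (SE 0.04, edgeR adjusted p = 0.943).

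Phosphofructokinase is the step at which glycolysis is classically controlled, and 1 of its 3 subunit genes passed. Pfkl stood at 186, 182, 188 and 184 CPM in control mice 1 to 4 and 155, 163, 163 and 163 CPM in FAC mice 1 to 4. Every FAC library was below every control library, and the 4 control values lay within a narrow band. Pfkl fell by 13.1% of its control mean, a log2 change of -0.20 (SE 0.03, edgeR adjusted p = 0.00716), and passed in 8 of 8 fits that left out 1 library (highest adjusted p 0.0297). Pfkp, the more abundant subunit, stood at 262, 253, 261 and 256 CPM in control mice 1 to 4 and 280.3, 270.3, 282 and 253 CPM in FAC mice 1 to 4, with overlapping groups and a log2 change of 0.08 (SE 0.04, edgeR adjusted p = 0.324). Pfkm, the muscle type, had a log2 change of 0.03 (SE 0.08, edgeR adjusted p = 0.886) at a mean of 13.04 CPM. That Pfkl differed from Pfkp in its response was not tested.

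The fall of Pfkl depended on the scale. The effective length that the authors' quantification gave Pfkl was 3229, 3107, 3023 and 2779.6 bases in control mice 1 to 4 and 2964, 2816, 2718 and 2862 bases in FAC mice 1 to 4. Divided by these lengths, the level of Pfkl was 80.2, 78.8, 87.2 and 93.0 TPM in control mice 1 to 4 and 73.8, 82.1, 85.9 and 80.6 TPM in FAC mice 1 to 4. On this scale the groups overlapped, and the libraries with the longest effective length, control 1 and control 2, had the lowest control levels in TPM. The log2 change was -0.07 from mean TPM, and limma on log2(TPM + 1) gave an adjusted p of 0.672. Counts fitted with the effective length as an offset gave 0.346 (edgeR). Which transcripts of Pfkl make up this difference was not tested.

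**Figure D3:**
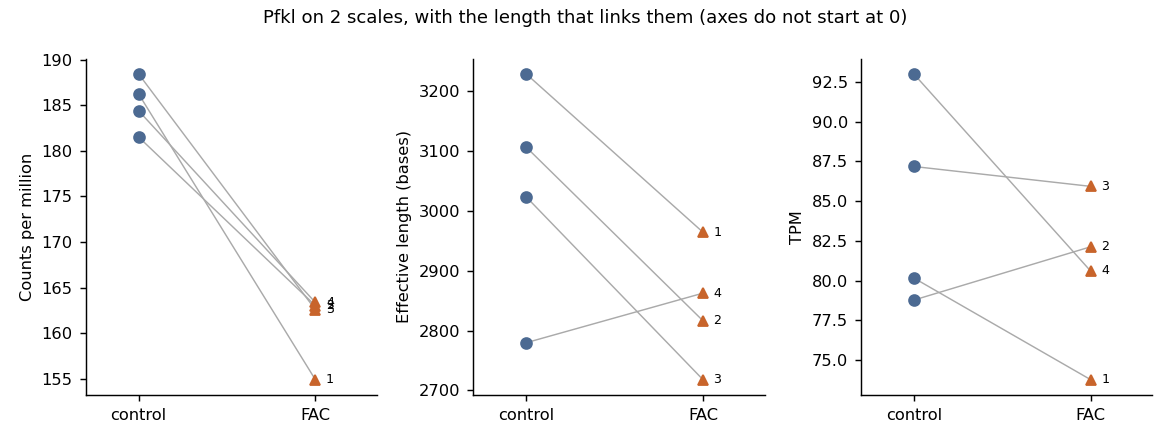
Pfkl in each library on 3 scales: CPM, effective transcript length in bases, and TPM, with control and FAC as separate groups and lines joining the libraries of 1 mouse. The groups are apart in CPM and overlap in effective length and in TPM.

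Triose phosphates are handled by aldolase and by triose phosphate isomerase. Tpi1, which turns dihydroxyacetone phosphate into the triose that lower glycolysis uses, had the lowest log2 change of the 36 genes. It stood at 343, 387, 386 and 403 CPM in control mice 1 to 4 and 278, 309, 294 and 318 CPM in FAC mice 1 to 4. All 4 FAC libraries were below the lowest control library, and control 1 was the lowest of its group. Tpi1 fell by 21.2% of its control mean, a log2 change of -0.34 (SE 0.05, edgeR adjusted p = 0.00348), and passed in 8 of 8 fits that left out 1 library (highest adjusted p 0.0220). The log2 change within mice 1 to 4 was -0.31, -0.33, -0.39 and -0.34. On the TPM scale its direction was kept and its call was lost (log2 change -0.30 from mean TPM; limma adjusted p = 0.0669 with a pseudocount of 1). Aldoa, which makes the triose phosphates, stood at 1277, 1345, 1315 and 1325 CPM in control mice 1 to 4 and 1189, 1200.3, 1261 and 1316 CPM in FAC mice 1 to 4. Its groups overlapped, although FAC was lower in each of the 4 mice, with a log2 change of -0.08 (SE 0.04, edgeR adjusted p = 0.271). Aldoc, the brain-type aldolase, had the lowest level, at 0.239 CPM in control and 0.524 CPM in FAC libraries, with a log2 change of 1.08 (SE 0.54, edgeR adjusted p = 0.311). The Pfkfb enzymes, which make and break the activator of phosphofructokinase, did not pass. Pfkfb3 stood at 74.5, 66.1, 75.6 and 74.0 CPM in control mice 1 to 4 and 75.8, 69.1, 67.3 and 71.5 CPM in FAC mice 1 to 4, with overlapping groups and a log2 change of -0.03 (SE 0.05, edgeR adjusted p = 0.807), and Pfkfb4 had 0.09 (SE 0.15, edgeR adjusted p = 0.801).

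In lower glycolysis, Pgam1 fell, Gapdh and Eno1 missed the threshold without the mouse block and passed with it, and Pgk1, Pkm, Eno2 and Eno3 passed in neither fit. Pgam1, which moves the phosphate on phosphoglycerate, stood at 612, 615, 615 and 603 CPM in control mice 1 to 4 and 535, 532, 533 and 573 CPM in FAC mice 1 to 4. FAC 4 lay closest to the control libraries, and the groups did not overlap. Pgam1 fell by 11.1% of its control mean, a log2 change of -0.17 (SE 0.03, edgeR adjusted p = 0.0182). The call was lost without control 1, control 3, FAC 2 or FAC 3 (highest adjusted p 0.0924), with log2 changes from -0.17 to -0.16 in those fits. It was also lost on the TPM scale, where the groups still did not overlap (limma on log2(TPM + 1), adjusted p = 0.0972).

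Gapdh, the dehydrogenase that makes NADH, stood at 2058, 2237, 2163 and 2245 CPM in control mice 1 to 4 and 1894, 1993, 1984 and 2131 CPM in FAC mice 1 to 4. The groups overlapped, and FAC was lower in each mouse. Its log2 change was -0.12 (SE 0.04, edgeR adjusted p = 0.146), and the adjusted p with the mouse block was 0.0270. Eno1 (enolase) stood at 1259, 1338, 1368 and 1362 CPM in control mice 1 to 4 and 1152, 1182, 1261 and 1258 CPM in FAC mice 1 to 4. It was also lower with FAC in each mouse with overlapping groups, at a log2 change of -0.13 (SE 0.04, edgeR adjusted p = 0.0997) and an adjusted p of 0.0162 with the mouse block. Pkm, pyruvate kinase, was lower in each mouse without passing either fit, with a log2 change of -0.09 (SE 0.04, edgeR adjusted p = 0.213) and an adjusted p of 0.0783 with the mouse block. Pgk1, the first ATP-yielding kinase of glycolysis, had a log2 change of -0.06 (SE 0.03, edgeR adjusted p = 0.416). The minor enolases had 0.16 (SE 0.23, edgeR adjusted p = 0.757) for Eno2 and 0.01 (SE 0.06, edgeR adjusted p = 0.965) for Eno3.

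Several of these genes share closely matching stretches with other transcripts of the mouse genome, called copies here, to which shared reads can be assigned. By sequence (at least 90% identity over at least 200 bases of transcript in the GENCODE M21 annotation), counts given to such copies amounted to 10.1% to 11.8% of the count of Pgk1 across the 8 libraries and to as much as 9.94% of that of Eno1. The range was 5.31% to 7.03% for Pgam1, 2.48% to 3.98% for Pkm, 1.49% to 1.79% for Gapdh with its 202 copies, 0.918% to 1.08% for Ldha and 0.0524% to 0.179% for Tpi1. With copies added to their gene, Pgam1 had a log2 change of -0.17 (edgeR adjusted p = 0.0262), and no call among the members changed. How many reads given to a copy belong to its gene, or the reverse, was not tested. These percentages therefore do not bound the error in the levels of these genes.

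Pyruvate is either reduced to lactate by lactate dehydrogenase or used in the mitochondrion by pyruvate dehydrogenase, the enzyme that the pyruvate dehydrogenase kinases restrain. Ldha stood at 2012, 2067, 2090.1 and 2092 CPM in control mice 1 to 4 and 1827, 1840.2, 1879 and 2005 CPM in FAC mice 1 to 4. All FAC libraries were below all control libraries. Ldha missed the threshold at a log2 change of -0.13 (SE 0.04, edgeR adjusted p = 0.0791) and fell by the test with the mouse block (adjusted p = 0.0227). Ldhb, the other subunit, had a log2 change of -0.04 (SE 0.07, edgeR adjusted p = 0.783). Pdk1 stood at 75.9, 71.2, 79.5 and 77.1 CPM in control mice 1 to 4 and 74.5, 72.7, 70.8 and 74.7 CPM in FAC mice 1 to 4. Pdk3 stood at 44.7, 44.1, 43.8 and 41.7 CPM in control mice 1 to 4 and 38.0, 42.4, 37.4 and 41.7 CPM in FAC mice 1 to 4. Both kinases had overlapping groups and passed in neither fit, with log2 changes of -0.05 and -0.13 (edgeR adjusted p = 0.586 and 0.232). Pdk2 had a log2 change of 0.07 (SE 0.25, edgeR adjusted p = 0.907) at 1.38 TPM.

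Lactate leaves the cell through the monocarboxylate carriers, and among the members most of their transcripts were of Slc16a1 (MCT1). Slc16a1 stood at 311, 304, 311 and 299.6 CPM in control mice 1 to 4 and 301, 277, 278 and 274 CPM in FAC mice 1 to 4. FAC 1 lay well above the other FAC libraries and inside the control range, so the groups overlapped. The log2 change was -0.12 (SE 0.04, edgeR adjusted p = 0.119), and Slc16a1 passed with the mouse block (adjusted p = 0.0408) and when FAC 1 was left out (adjusted p = 0.0308). Slc16a3 (MCT4), the carrier typical of strongly glycolytic tissue, was low at 2.73 TPM and had a log2 change of -0.31 (SE 0.17, edgeR adjusted p = 0.341). The phosphoglucomutases, which connect glycolysis to glycogen, did not pass in either fit. Pgm1 stood at 37.2, 39.6, 39.4 and 41.2 CPM in control mice 1 to 4 and 35.99, 38.0, 42.8 and 43.4 CPM in FAC mice 1 to 4. Pgm2 stood at 20.0, 20.3, 18.5 and 18.9 CPM in control mice 1 to 4 and 20.3, 16.1, 19.8 and 19.5 CPM in FAC mice 1 to 4. The log2 changes were 0.02 and -0.04 (edgeR adjusted p = 0.889 and 0.850), and the groups of both overlapped.

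In the pentose phosphate pathway, G6pdx rose and the other 6 genes passed in neither fit. G6pdx stood at 76.7, 79.4, 74.2 and 76.9 CPM in control mice 1 to 4 and 87.2, 87.1, 84.3 and 91.9 CPM in FAC mice 1 to 4. Every FAC library was above every control library, and the same held in TPM (46.0, 44.6, 42.5 and 43.8 TPM in control mice 1 to 4 and 52.9, 52.2, 51.2 and 55.5 TPM in FAC mice 1 to 4). The rise was 14.0% of the control mean, a log2 change of 0.19 (SE 0.04, edgeR adjusted p = 0.0304), and 0.19, 0.13, 0.18 and 0.26 within mice 1 to 4. The call was lost without control 1, control 3, control 4, FAC 2, FAC 3 or FAC 4 (highest adjusted p 0.116), with log2 changes from 0.17 to 0.21 in those fits. G6pdx was the only member that passed with limma on log2(TPM + 1) (adjusted p = 0.0361), and it missed the threshold with the effective length as an offset in edgeR (log2 change 0.22, adjusted p = 0.0654). Of the oxidative branch, Pgd, which makes the second NADPH of the route, stood at 159, 167, 162 and 162 CPM in control mice 1 to 4 and 163, 166, 165 and 170.3 CPM in FAC mice 1 to 4. Its groups overlapped, with a log2 change of 0.03 (SE 0.03, edgeR adjusted p = 0.682), and the lactonase Pgls had 0.10 (SE 0.08, edgeR adjusted p = 0.573).

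Of the non-oxidative branch, the transketolase Tkt stood at 592, 621, 605 and 629 CPM in control mice 1 to 4 and 608, 637, 627 and 683 CPM in FAC mice 1 to 4. It was higher with FAC in each mouse, with overlapping groups in CPM and a log2 change of 0.06 (SE 0.04, edgeR adjusted p = 0.435). In TPM the groups of Tkt did not overlap (440.2, 430.2, 447 and 445 TPM in control mice 1 to 4 and 454, 457, 469 and 497 TPM in FAC mice 1 to 4), nor did those of Pgd, a separation seen for 9.38% of all tested genes, while limma on log2(TPM + 1) gave adjusted p = 0.272 and 0.427. The transaldolase Taldo1 had 0.01 (SE 0.04, edgeR adjusted p = 0.880), the ribose phosphate isomerase Rpia -0.03 (SE 0.05, edgeR adjusted p = 0.786) and the epimerase Rpe -0.14 (SE 0.07, edgeR adjusted p = 0.315). The branch thus held members on both sides of 0. Rpe passed, lower with FAC, in the edgeR fit with the mouse block that left out mouse 1 (log2 change -0.22, adjusted p = 0.0363). With limma on log2(TPM + 1), Tkt and Pgd had log2 changes of 0.09 and 0.06, beside a median of 0.03 over 11909 genes.

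**Figure D4:**
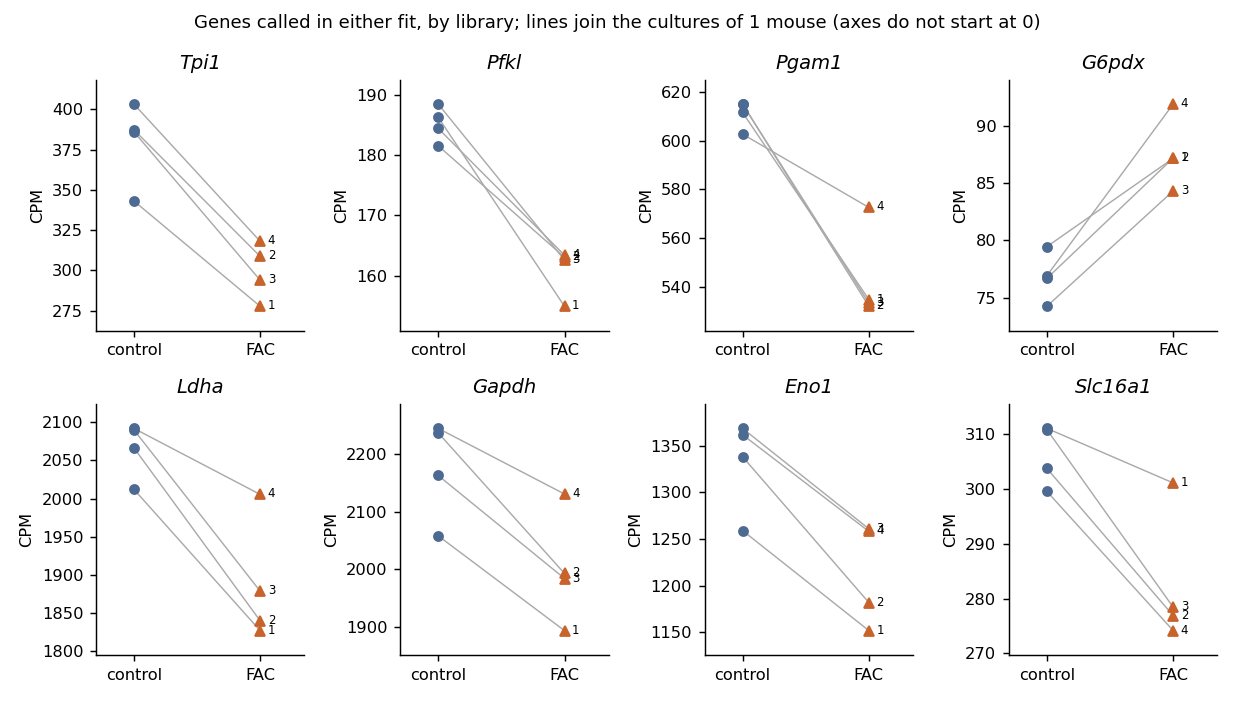
CPM in each library for the 8 genes that passed without or with the mouse block, with lines joining the control and FAC library of each mouse. Tpi1, Pfkl, Pgam1 and Ldha show all FAC points below all control points, G6pdx shows the opposite, and the points of Gapdh, Eno1 and Slc16a1 overlap.

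Summed over the 36 genes, transcripts of the pathway made up 12020.3, 12193, 12632 and 12805 TPM in control mice 1 to 4 and 11334, 11755, 11977 and 12434 TPM in FAC mice 1 to 4. The sum was lower with FAC in 4 of 4 mice, although the groups overlapped (means 12413 ± 367 and 11875 ± 458 TPM, SD, n = 4 each). The 7 genes of lower glycolysis gave 6608 ± 221 and 6279 ± 254 TPM and the 9 of upper glycolysis 2532 ± 90.2 and 2418 ± 104 TPM, in control and FAC libraries in that order. The sum of the 7 pentose genes went the other way, at 907, 899, 912 and 903 TPM in control mice 1 to 4 and 923, 946, 950.3 and 997 TPM in FAC mice 1 to 4. On this scale every FAC library was above every control library, and Tkt made up the largest part of the sum. In CPM the groups overlapped, with sums of 1103 to 1152 CPM in control and 1127 to 1219 CPM in FAC libraries, and the log2 change of the mean was 0.05, against 0.08 in TPM. Genes at large also lay higher in TPM. With limma on log2(TPM + 1) the median log2 change was 0.03 over 11909 genes and 0.05 for the 7 pentose genes. Over all tested genes in the fit on counts it was -0.001. These sums lean on the most abundant genes and were given no test.

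**Figure D5:**
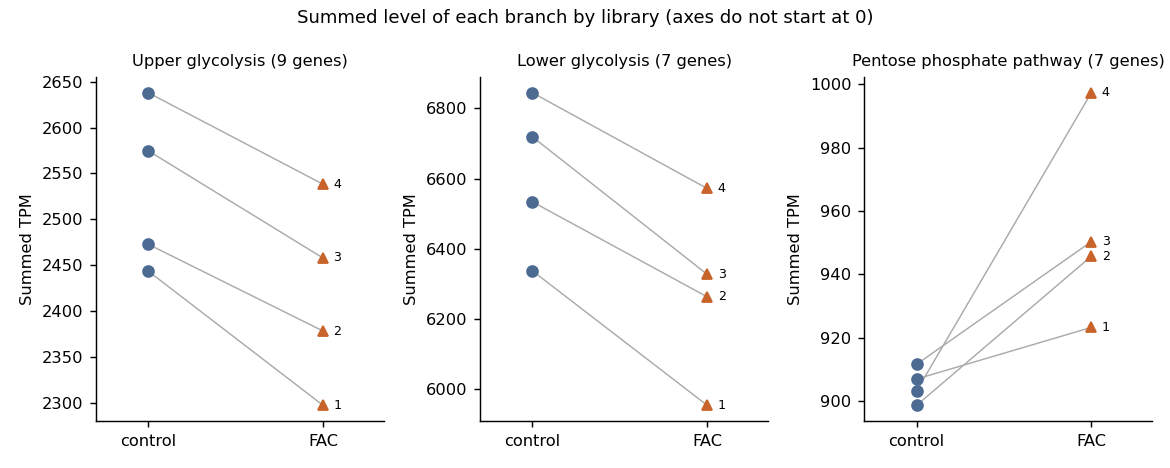
Summed TPM per library for upper glycolysis, lower glycolysis and the pentose phosphate pathway, with lines joining the libraries of each mouse. The sum for the pentose phosphate pathway rises from a mean of 905 to 954 TPM, and that for lower glycolysis goes from 6608 to 6279 TPM.

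Across mice, 13 of the 36 genes (36.1%) were lower with FAC in all 4, against 15.4% of all tested genes. They were Slc2a1, Slc2a3, Pfkl, Aldoa, Tpi1, Gapdh, Pgam1, Eno1, Pkm, Ldha, Slc16a1, Slc16a3 and Pdk3. Higher in all 4 mice were Aldoc, G6pdx and Tkt, against 14.7% of all tested genes. Aldoc had counts of 1, 8, 18 and 3 in control mice 1 to 4 and 15, 16, 18 and 13 in FAC mice 1 to 4, so it passed the filter on low counts through the FAC libraries and its count in mouse 3 was the same in both. The median log2 change of the 36 genes was -0.05, -0.07, -0.05 and -0.03 in mice 1 to 4. Mouse 4 had the smallest fall of the 4 mice in 8 of the 13 genes, and mice 1, 2 and 3 in 2, 1 and 2 of them. The members varied less between control cultures than genes at large: the median coefficient of variation of their CPM was 3.87%, against 7.51% for all tested genes, and their levels were higher.

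Genes of the same routes outside the 36 were read from lists of other isozymes and side enzymes, pyruvate entry, glycogen, pathway regulators and hypoxia-inducible targets outside glycolysis. Of 79 such genes tested, 1 was higher and 4 were lower, against 3.27% of all tested genes called. With the mouse block 3 were higher and 6 lower, and with limma on log2(TPM + 1) none passed (13 at an unadjusted p under 0.05). Prps1, which makes the activated ribose for nucleotide synthesis from the product of the pentose pathway, was the only gene of 27 other isozymes and side enzymes that passed, at a log2 change of -0.18 (SE 0.04, edgeR adjusted p = 0.0234). Pygb, a glycogen phosphorylase, was the only gene of 7 in the glycogen list that passed, at 0.22 (SE 0.05, edgeR adjusted p = 0.0339). None of the 11 pyruvate entry genes passed (2 at an unadjusted p under 0.05), and Pdp2, a pyruvate dehydrogenase phosphatase, passed with the mouse block.

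Among 17 regulators, Egln3, a prolyl hydroxylase of hypoxia-inducible factors that needs iron and is itself their target, was the only gene that passed. It went from 7.29 ± 0.632 to 4.77 ± 0.733 CPM (SD, n = 4), a log2 change of -0.62 (SE 0.13, edgeR adjusted p = 0.0201). Myc had a log2 change of -0.13 (SE 0.04, edgeR adjusted p = 0.116) and Mlxip one of 0.17 (SE 0.05, edgeR adjusted p = 0.111), and of the regulators these joined Egln3 with the mouse block (adjusted p = 0.0270 and 0.0298). Among 17 hypoxia-inducible targets outside glycolysis, Ak4, a mitochondrial adenylate kinase, and P4ha1, a collagen prolyl hydroxylase subunit, fell. Ak4 stood at 26.6, 23.6, 26.8 and 27.7 CPM in control mice 1 to 4 and 20.4, 19.9, 21.6 and 18.0 CPM in FAC mice 1 to 4, with a log2 change of -0.39 (SE 0.07, edgeR adjusted p = 0.0113), and passed in 8 of 8 fits that left out 1 library. P4ha1 went from 68.5 ± 4.23 to 58.2 ± 1.09 CPM (SD, n = 4), a log2 change of -0.23 (SE 0.05, edgeR adjusted p = 0.0223). Ankrd37 had a log2 change of -0.53 (SE 0.16, edgeR adjusted p = 0.0866) and passed with the mouse block (adjusted p = 0.0395). Over these 17 targets the log2 change had a median of -0.09. Leaving out 1 library ended the calls of the 4 genes other than Ak4 that passed without the block: that of Prps1 without control 1, 2 or 3, FAC 2 or FAC 3 (highest adjusted p 0.101), and that of Pygb without control 1, 2 or 3, FAC 2, FAC 3 or FAC 4 (0.136). The call of Egln3 was lost without control 2, control 3, FAC 2 or FAC 3 (0.0823) and that of P4ha1 without control 1, FAC 2 or FAC 3 (0.0863).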

How the data were processed

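RNA from 4 control and 4 FAC cultures was made into stranded mRNA libraries, per the labels' protocols. The submitters' processing notes list STAR 2.7.6a and RSEM 1.3.1 beside FastQC, with DESeq2 1.26.0 and DESeq in R 3.6.3, and name GRCm39. Annotation release and counting strand are not given in the sources used here. Files deposited by the authors hold RSEM expected counts and TPM values per gene and library, with effective lengths, per the file headers. They also deposited a matrix of normalised signal for 13751 genes. Expected counts were rounded, filtered with filterByExpr (minimum count 10, minimum total 15), scaled by TMM and fitted with edgeR 4.0.16 (quasi-likelihood test, group alone, R 4.3.3). Calls needed an adjusted p (Benjamini-Hochberg over 13378 genes) below 0.05. The genes tested held 99.9% of the counts. CPM values use the TMM-scaled totals. Standard errors were taken as the size of the log2 change over the square root of the F statistic.

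The labels use the same mouse numbers in both groups, so a fit with a replicate block for the mouse was run beside it. Deviations from the group means correlated across genes at r = 0.137, 0.0165, 0.0647 and 0.139 between the libraries of mice 1 to 4. Between different mice r ran from -0.180 to 0.0331, and the value of mouse 2 lay inside that range (genes are not independent). Within a group, no pair of libraries was alike within sampling noise (chi-square per degree of freedom 5.23 to 16.6), and with 4 numbered mice p-values measure the spread between these cultures. Other alternatives were RLE and upper-quartile factors, no filter, DESeq2 1.42.0, limma 3.58.1 (voom, on log2(TPM + 1), log2(TPM + 0.1) and log2(signal + 1)), an effective length offset, a correction for GC content and length with the block, and each library left out. GC and length correction without the block and the addition of gene copies were chosen after seeing the data. The fit was tested on simulated data.

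The members and the gene lists were chosen with earlier results of these data known. Values in every library are given for members called with or without the block, for the most abundant of each role group, and for a second isozyme with at least 10% of its step, and other pathway genes are named where called. Myc, Mlxip, Pdp2 and Ankrd37 were named after their values were seen. Some of the cell type markers are not reported here. Of 105 listed pathway genes 102 matched the files and 79 were tested. Promoters come from RefSeq (GRCm38.p6), and GC content and copies from GENCODE M21, which is not the build of the files. Length in the GC and length correction was the mean over the libraries of the effective lengths in the authors' files.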

Additional observations from a re-analysis of the deposited data

Results flagged for a closer look

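Each member's 4 values in a group were searched for a library far from the other 3 (a gap above Dixon's 95% limit), which chance meets in about 1 in 20 groups. Of 72 groups, 7 met it. For Slc2a1, FAC 3 was high at 81.5 CPM against 76.8 to 77.3 CPM in the other FAC libraries, and still below every control library. For Pfkl, FAC 1 was low at 155 CPM against 163 CPM in each of the other 3. For Pgam1, FAC 4 was high at 573 CPM against 532 to 535 CPM. Slc16a1 had a high FAC 1 at 301 CPM against 274 to 278 CPM, and Pgk1 a high FAC 4 at 874 CPM against 818 to 827 CPM. The rest were Pfkm in control 2 at 14.3 CPM (others 12.4 to 12.6 CPM) and Eno2 in FAC 3 at 1.82 CPM (others 2.33 to 2.43 CPM). FAC 1, FAC 3 and FAC 4 each held 2 of these values.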

How the results depend on the processing

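Across 27 alternatives, 908 of 969 results for single members kept their direction when called and their side of the threshold, 27 lost a call, 34 gained one and 0 reversed. A change of sign without a call occurred in 37 comparisons over 12 members. Members called (4 without the block) numbered 8 with the mouse as replicate block, 8 with DESeq2, 1 with limma on log2(TPM + 1) or log2(TPM + 0.1), 0 with log2(TPM + 1) and no filter (7 at an unadjusted p under 0.05), 2 on the deposited signal and 2 with the effective length offset. They numbered 11 with GC and length correction, with or without the replicate block. All genes called (438) numbered 919 with the replicate block, 736 with no filter, 797 with DESeq2, 97, 117 and 47 in the 3 TPM fits in that order, 156 on the signal, 187 with the length offset, 800 with GC and length correction and 1371 with that correction and the block. The 5 other pathway genes became 9 with the replicate block, 9 with DESeq2, 14 with the block and GC and length correction, and 0 on TPM, signal or with the length offset (13 to 17 at an unadjusted p under 0.05). Leaving out 1 library gave 147 to 549 genes, 2 to 5 members and 1 to 5 other genes, and the count over all genes fell by more than 1.5 times without control 1, 2 or 3, FAC 2 or FAC 3. With the replicate block, leaving out mouse 3 gave 165 genes, 1 member and 1 other gene, and leaving out mouse 4 gave 1217, 9 and 12. For all of these the cause was not tested. Genes higher made up 66.4% of calls, 53.3% with GC and length correction, 48.7% with it and the block, and 76.9% on log2(TPM + 0.1). Of the called members, Tpi1 kept its call except on TPM, and Pfkl lost it on TPM, signal and with the length offset (adjusted p from 0.327 to 0.743) and, with the replicate block, without mouse 3 (0.0529). With 4 mice per group, log2 changes near 0.1 passed or missed by the choice of fit. So did the larger changes of Pgam1, G6pdx and Pfkl (-0.17, 0.19 and -0.20 in that order). Single low genes such as Aldoc are limited by depth.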
